A study of Homo sapiens with 12 samples.

Results

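The receptors, SMAD proteins and SKI repressors of transforming growth factor beta (TGF-beta) signalling were followed in clones of OCI-AML2, a human cell line of acute myeloid leukaemia. The set holds 10 of the 55765 genes of the count table: the ligand gene TGFB1, the receptor genes TGFBR1, TGFBR2 and TGFBR3, the SMAD genes SMAD2, SMAD3, SMAD4 and SMAD7, and the repressor genes SKI and SKIL. They were taken by symbol, and the set was chosen because TGFBR2 was higher in S222A induced than in S222A uninduced cells. The values of that contrast are therefore given for the 10 genes as a description, without a test. The study asked, by its title, about phosphorylation of the transcription factor MEF2C in chemotherapy resistance. The clones carried a doxycycline-inducible MEF2C, either with the S222A change, in which alanine replaces a serine, or wild type (WT). There were 4 groups of 3 libraries, from cultures of 1000000 cells in 3 ml. S222A induced cells had 48 h of doxycycline, given as 600 ng with no word on whether that is per ml, and S222A uninduced cells are labelled as without treatment, with a vehicle control named in the protocol. WT induced and WT uninduced cells were kept in the same 2 ways. The lines are single-cell clones, the number of clones behind each is not given, cells without a MEF2C construct are not among the samples, and no label says that replicates were separate cultures, so p-values measure a spread that may be technical.

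TGF-beta binds the type II receptor TGFBR2, which recruits and phosphorylates the type I receptor TGFBR1. TGFBR1 in turn phosphorylates SMAD2 and SMAD3, which enter the nucleus with SMAD4 and act on target genes. TGFBR3, or betaglycan, presents ligand to the signalling receptors, SMAD7 is an inhibitory SMAD that targets the active receptor, and SKI and SKIL (SnoN) bind SMADs and recruit corepressors to them. In blood progenitors the pathway is known for holding back proliferation.

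The stretches of 250 bases before the annotated starts of TGFBR2, SMAD3 and SKIL are shown because these 3 genes had the largest log2 values of the set on S222A induction. They are from RefSeq on GRCh38.p14, whereas the counts were made on hg19, and no position below is linked to a count. Of several starts, the one farthest upstream is shown. All 3 are on the plus strand, and capitals mark the GC box GGGCGG, read on both strands.
TGFBR2, chr3:30606106-30606355: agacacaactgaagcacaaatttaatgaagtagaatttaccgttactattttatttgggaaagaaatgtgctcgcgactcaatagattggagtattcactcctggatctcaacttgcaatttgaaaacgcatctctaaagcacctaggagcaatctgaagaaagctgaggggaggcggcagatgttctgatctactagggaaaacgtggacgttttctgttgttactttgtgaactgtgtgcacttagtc
SMAD3, chr15:67065352-67065601: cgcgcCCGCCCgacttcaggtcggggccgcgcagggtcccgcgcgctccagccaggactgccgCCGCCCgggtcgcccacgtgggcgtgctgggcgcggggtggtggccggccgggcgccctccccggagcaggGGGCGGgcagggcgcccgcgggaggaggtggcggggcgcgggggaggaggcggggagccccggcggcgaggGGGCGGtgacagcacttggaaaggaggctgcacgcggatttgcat
SKIL, chr3:170357465-170357714: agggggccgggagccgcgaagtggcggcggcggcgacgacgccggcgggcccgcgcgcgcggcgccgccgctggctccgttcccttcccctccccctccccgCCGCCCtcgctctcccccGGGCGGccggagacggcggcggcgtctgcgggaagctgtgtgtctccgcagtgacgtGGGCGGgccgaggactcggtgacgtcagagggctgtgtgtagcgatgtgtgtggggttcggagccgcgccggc
The TGFBR2 stretch was poor in G and C, at 40.8%, against 80.8% for SMAD3 and 78.4% for SKIL, and held no GC box, a motif found in 42.6% of all 35116 RefSeq windows of this length. A second TGFBR2 start 245 bases downstream had 2 GC boxes and 58.4% G and C. Windows were available for 9 of the 10 genes, 24 in all, with none for SKI. Among these 24 windows, none held the MEF2 consensus, which is in 2.8% of all windows, and none the SMAD palindrome GTCTAGAC, which is in 0.182%. The SMAD-type motif CAGACA was in 3 of them, in TGFBR1 and SMAD3, and in 13.6% of all windows, and the AP-1 motif TGANTCA in 1, an alternative start of SMAD3, and in 6.57% of all windows. A TATA box, TATAAA, was in 1, a start of SMAD7, and in 10.7% of all windows. Motifs were read on both strands, no match overlapped that of another motif, and windows of 1 gene can overlap each other.

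Library totals ranged from 875710 to 13134791 counts, and 11474 genes, all 10 members among them, passed the low count filter and were tested together. One library per group was far deeper than the rest (5412391 to 13134791 counts, against at most 4489036), so values within these 4 and within the other 8 libraries are given beside results. S222A uninduced replicate 3 and WT induced replicate 2 had under 1000000 counts each, and a floor of 3 counts was worth 3.29 and 3.36 counts per 1000000 (CPM) in them, against 0.239 to 1.51 CPM in the other 10. Of the markers of the line, PTPRC, CD33, SPI1, FLT3, HOXA9 and MEIS1 were present in all 12 libraries, MPO was at 0.693 to 19.3 CPM and ANPEP at no more than 1.1 CPM. Over lists of 4 genes, summed T cell markers stayed at or below 1.73 CPM, B cell markers at or below 5.1 CPM, erythroid markers at or below 0.223 CPM and megakaryocyte markers at or below 7.97 CPM. Of the epithelial list, EPCAM and KRT18 were at 0 and CDH1 stood at 12.4 to 37.2 CPM. MEF2C RNA, construct and endogenous gene together, averaged 887 ± 89.4 CPM in S222A induced and 702 ± 98.2 CPM in S222A uninduced cells (SD, n = 3 each), with a log2 fold change of 0.34 ± 0.16 SE and an adjusted p = 0.285 in edgeR's quasi-likelihood test. It averaged 777 ± 90.3 CPM in WT induced and 736 ± 86.2 CPM in WT uninduced cells (log2 0.08 ± 0.16 SE, adjusted p = 1.00), so MEF2C itself passed the threshold in neither line.

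TGFBR2, the ligand-binding type II receptor, was the member with the largest difference on S222A induction. It stood at 22.9, 34.3 and 33.2 CPM in S222A induced replicates 1 to 3, against 10.7, 10.3 and 6.57 CPM in S222A uninduced replicates 1 to 3. In the WT line it stood at 9.65, 14.6 and 9.21 CPM in induced and at 6.56, 8.31 and 7.35 CPM in uninduced replicates 1 to 3. Every S222A induced library was thus above all 9 others. The WT induced libraries were above the WT uninduced ones without overlap, but overlapped the S222A uninduced ones, which overlapped the WT uninduced ones. The S222A induction gave a 3.12-fold higher level (95% interval 2.13 to 4.57; log2 1.64 ± 0.26 SE), the value that chose the set. It was 1.59 in log2 within the deepest libraries and 1.71 within the other 8. The WT induction, which the choice of the set did not use, gave a 1.39-fold level (95% interval 0.919 to 2.11; log2 0.48 ± 0.28 SE) and was not called, with an adjusted p = 1.00 by edgeR. In log2 it was 0.21 within the deepest and 0.70 within the other libraries. The difference of the inductions, S222A minus WT, was 1.16 ± 0.38 SE in log2 (95% interval 0.35 to 1.98), given without a test because it contains the S222A contrast. Some marker sums also differed between groups. The 4 fibroblast markers summed to 7.49 to 11.4 CPM in S222A induced and 3.29 to 6.49 CPM in S222A uninduced libraries. Both WT groups overlapped S222A induced, at 6.73 to 9.65 CPM in WT induced and 3.03 to 8.5 CPM in WT uninduced libraries. Of these markers, COL1A1, COL1A2 and DCN were at 0 in 4, 8 and 4 libraries and PDGFRB was the most abundant. The 4 epithelial markers summed to 12.4 to 25.6 CPM in S222A induced and 19.1 to 35.0 CPM in S222A uninduced libraries. In the WT line they summed to 14.6 to 25.8 CPM induced and 16.6 to 37.2 CPM uninduced. The 8 myeloid markers summed to 1211 to 1318 CPM in S222A induced, 971 to 1004 CPM in S222A uninduced, 1019 to 1117 CPM in WT induced and 977 to 1132 CPM in WT uninduced libraries. The part of these markers in the result was not tested. As these are bulk RNA libraries, more cells with TGFBR2 RNA and more TGFBR2 RNA per cell cannot be told apart.

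**Figure D1:**
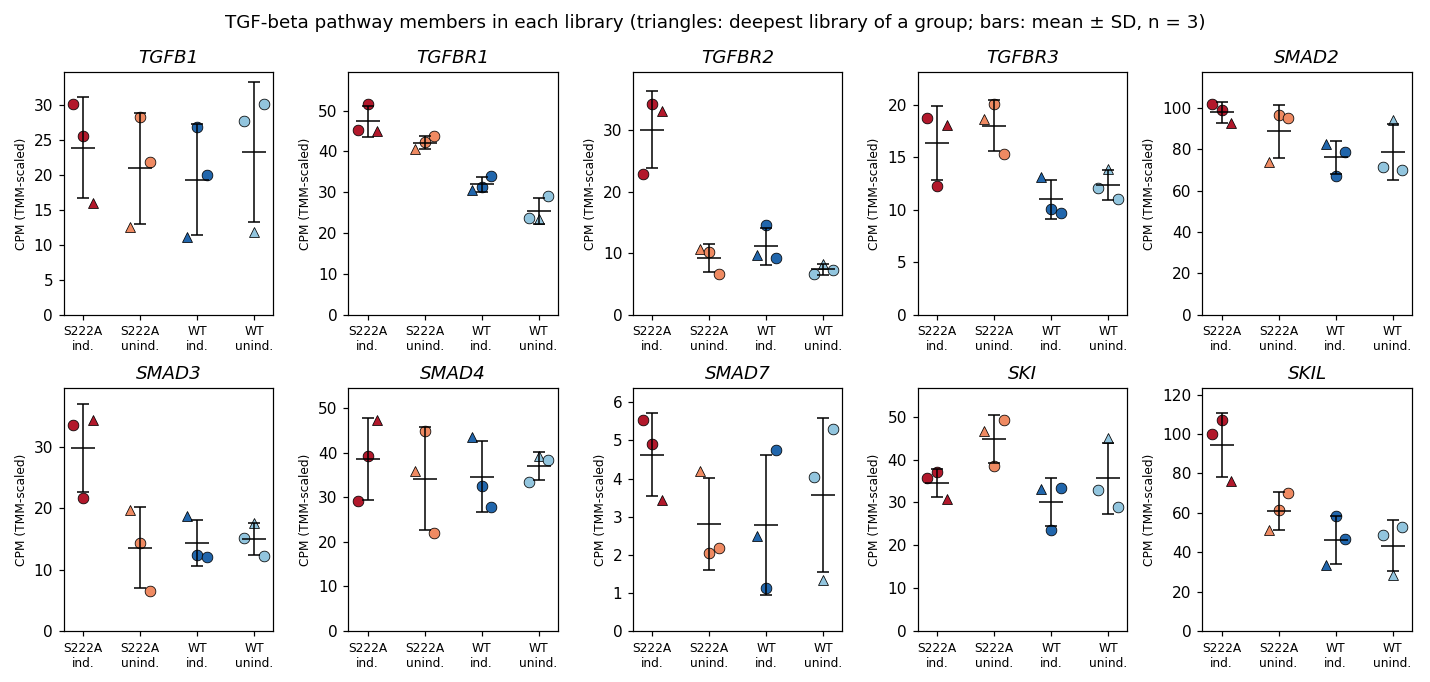
CPM of each gene (y axis, from 0, its own scale per panel) in the 12 libraries by group, with circles and triangles for single libraries, triangles for the deepest library of a group, and bars for the mean ± SD (n = 3). The S222A induced libraries have TGFBR2 at 22.9 to 34.3 CPM with all others at or below 14.6 CPM, and the deepest libraries are the lowest of their group in TGFB1.

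TGFBR1, the type I receptor kinase, lay higher in the S222A line both with and without doxycycline. It stood at 45.4, 51.7 and 45.0 CPM in S222A induced and at 40.5, 42.3 and 43.8 CPM in S222A uninduced replicates. In WT induced replicates it was at 30.5, 31.4 and 33.9 CPM, and in WT uninduced replicates at 23.7, 23.4 and 29.0 CPM. All 6 S222A libraries were above all 6 WT libraries, and within each line the induced libraries lay above the uninduced ones without overlap. Between the induced lines TGFBR1 was 1.48-fold higher in S222A (log2 0.57 ± 0.16 SE, 95% interval 0.23 to 0.90), with an edgeR quasi-likelihood adjusted p = 0.049. That call was kept without S222A uninduced replicate 3 (0.0428) and lost without any other single library (0.0513 to 0.18), highest without S222A induced replicate 2. It was also lost with no low count filter (0.297), with only the induced groups in the fit (0.0921) and without the deepest libraries (0.133). Between the uninduced lines it was 1.66-fold higher in S222A (log2 0.73 ± 0.16 SE), with an adjusted p = 0.0969, and so was not called. The log2 values were 0.55 induced and 0.78 uninduced within the deepest libraries, and 0.56 and 0.70 within the others. A fit with a term for the deepest libraries called the uninduced difference (0.0124). The inductions gave log2 values of 0.17 ± 0.15 SE in the S222A line and 0.34 ± 0.16 SE in the WT line, where the adjusted p was 1.00. The difference of the inductions was -0.16 ± 0.22 SE (95% interval -0.65 to 0.32; adjusted p = 0.998).

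TGFBR3, the coreceptor betaglycan, likewise lay higher in the S222A line with no call for doxycycline. It stood at 18.7, 12.3 and 18.1 CPM in S222A induced and at 18.6, 20.1 and 15.3 CPM in S222A uninduced replicates. It stood at 13.2, 10.1 and 9.74 CPM in WT induced and at 12.1, 13.9 and 11.03 CPM in WT uninduced replicates. The uninduced groups did not overlap and the induced groups did, through S222A induced replicate 2 and WT induced replicate 1. The log2 values of the S222A line over the WT line were 0.54 ± 0.24 SE induced (adjusted p = 0.211) and 0.56 ± 0.24 SE uninduced (adjusted p = 0.64), neither of them called by edgeR. Its induction values were -0.16 ± 0.23 SE in the S222A line and -0.15 ± 0.25 SE in the WT line.

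SMAD3, one of the receptor-activated SMADs, had the second largest difference on S222A induction. It stood at 33.6, 21.6 and 34.4 CPM in S222A induced replicates, against 19.7, 14.4 and 6.57 CPM in S222A uninduced replicates, the last from 6 counts. It stood at 18.7, 12.3 and 12.1 CPM in WT induced and at 15.1, 17.6 and 12.3 CPM in WT uninduced replicates. S222A induced libraries were above all others, while the other 3 groups overlapped. The S222A induction gave a 2.00-fold level (95% interval 1.25 to 3.20; log2 1.00 ± 0.31 SE), which was 0.79 within the deepest and 1.43 within the other libraries. The WT induction gave log2 -0.03 ± 0.33 SE (95% interval -0.73 to 0.68; edgeR adjusted p = 1.00). The difference of the inductions was 1.03 ± 0.45 SE in log2 (95% interval 0.05 to 2.01; unadjusted p = 0.041 and adjusted p = 0.73 by edgeR's quasi-likelihood test) and was not called. Between the induced lines SMAD3 was 2.01-fold higher in S222A, with an adjusted p = 0.0767 that also missed the threshold. It passed without S222A uninduced replicate 3 (0.0404), without the deepest libraries (0.046), with no low count filter (0.0227) and with a term for the deepest libraries (0.00167).

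SMAD2, the other receptor-activated SMAD, SMAD4, the shared partner, and SMAD7, the inhibitor, had no called difference in any of the comparisons. SMAD2 averaged 97.9 ± 4.9 CPM in S222A induced and 88.7 ± 12.8 CPM in S222A uninduced cells, and 76.3 ± 8 CPM in WT induced and 78.8 ± 13.6 CPM in WT uninduced cells (SD, n = 3 each). Its S222A induced libraries (92.5 to 102 CPM) lay above the WT induced ones (67.3 to 82.6 CPM), with a log2 value of 0.35 ± 0.17 SE between the induced lines (edgeR adjusted p = 0.26). SMAD4 overlapped in all comparisons, with group means between 34.2 and 38.6 CPM. SMAD7 was scarce, with 1 to 43 counts per library, and was under the floor of 3 counts in WT induced replicate 2 (1 count) and S222A uninduced replicate 3 (2 counts). It averaged 4.62 ± 1.08 CPM in S222A induced and 2.82 ± 1.2 CPM in S222A uninduced cells. Its WT averages were 2.78 ± 1.83 CPM induced and 3.57 ± 2.02 CPM uninduced (SD, n = 3 each). Its log2 value on S222A induction, 0.51, was -0.26 within the deepest and 1.14 within the other libraries. Its WT induction value of -0.09 had a 95% interval from -1.35 to 1.16, so these values do not decide whether SMAD7 changed. The part of its low counts and of the scatter between libraries in this was not tested.

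SKIL and SKI, the paired repressors, stood in opposite directions on S222A induction. SKIL stood at 100.1, 107.3 and 76.2 CPM in S222A induced and at 51.2, 61.6 and 70.1 CPM in S222A uninduced replicates. It stood at 33.6, 58.3 and 46.8 CPM in WT induced and at 49.0, 28.4 and 52.7 CPM in WT uninduced replicates. The S222A induced libraries were above all 9 others. SKI stood at 35.7, 37.0 and 30.8 CPM in S222A induced, against 46.7, 38.6 and 49.3 CPM in S222A uninduced replicates, without overlap. It was at 33.2, 23.5 and 33.4 CPM in WT induced and at 32.8, 45.0 and 29.0 CPM in WT uninduced replicates, which overlapped. The S222A induction gave log2 0.65 ± 0.26 SE for SKIL (0.57 within the deepest and 0.65 within the other libraries) and -0.38 ± 0.20 SE for SKI (-0.59 and -0.26).

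Between the induced lines SKIL was 2.10-fold higher in S222A (95% interval 1.42 to 3.10; log2 1.07 ± 0.26 SE). Its adjusted p was 0.0293 by edgeR, and the log2 value was 1.17 within the deepest and 0.98 within the other libraries. The call was lost without WT induced replicate 1 (0.0869) or 3 (0.0982) and without S222A induced replicate 1 (0.0951) or 2 (0.11). Between the uninduced lines the log2 value of SKIL was 0.49 ± 0.26 SE (adjusted p = 0.754). The WT induction gave 0.07 ± 0.27 SE for SKIL (adjusted p = 1.00) and -0.22 ± 0.21 SE for SKI (adjusted p = 1.00). The differences of the inductions were 0.58 ± 0.37 SE for SKIL (95% interval -0.21 to 1.38; adjusted p = 0.878) and -0.16 ± 0.29 SE for SKI (95% interval -0.78 to 0.47; adjusted p = 1.00), neither of them called. SKI did not differ in a call between the lines either, with log2 values of 0.16 ± 0.21 SE induced (adjusted p = 0.74) and 0.31 ± 0.21 SE uninduced (adjusted p = 0.842).

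Ratios of counts within a library need no scaling between libraries. There were 2.81, 2.90 and 2.47 SKIL counts per SKI count in S222A induced replicates, against 1.10, 1.60 and 1.42 in S222A uninduced replicates. In WT cells the ratio was 1.01, 2.48 and 1.40 induced and 1.49, 0.631 and 1.82 uninduced. The S222A groups did not overlap, whereas WT induced replicate 2 reached the S222A induced level from 52 SKIL and 21 SKI counts. The deepest library had the lowest SKIL to SKI ratio of its group in all 4 groups. There were 0.504, 0.664 and 0.736 TGFBR2 counts per TGFBR1 count in S222A induced replicates, above the 0.15 to 0.464 of the other 9 libraries. This ratio contains the TGFBR2 counts that chose the set, so it is a description and no separate support. There were 0.329, 0.218 and 0.372 SMAD3 counts per SMAD2 count in S222A induced replicates, and 0.267, 0.148 and 0.069 in S222A uninduced replicates, which overlapped. Counts are not per length, so the ratios compare libraries and not the abundance of the 2 genes.

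**Figure D2:**
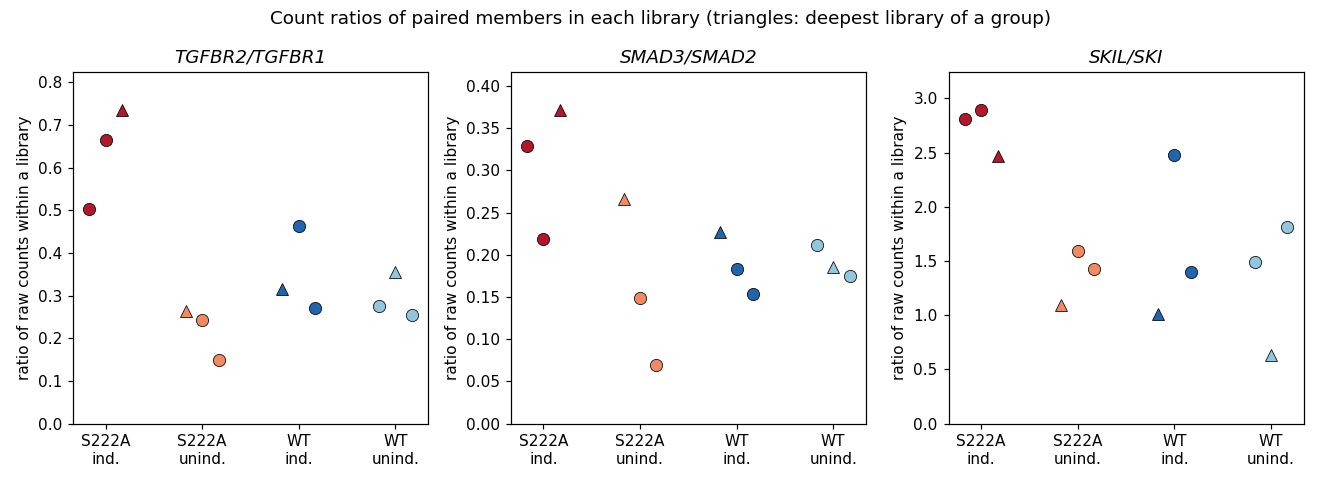
Raw counts of one gene per count of its partner (y axis, from 0) in each library by group, for TGFBR2 over TGFBR1, SMAD3 over SMAD2 and SKIL over SKI, with triangles for the deepest library of a group. The 3 S222A induced libraries are the highest for TGFBR2 over TGFBR1 at 0.504 to 0.736, and for SKIL over SKI they are at 2.47 to 2.90 beside 1 WT induced library at 2.48. The ratio of TGFBR2 over TGFBR1 contains the TGFBR2 counts that chose the set.

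TGFB1, the ligand gene, overlapped between the groups in all comparisons. It stood at 30.1, 25.6 and 15.9 CPM in S222A induced and at 12.6, 28.3 and 21.9 CPM in S222A uninduced replicates. It stood at 11.1, 26.9 and 20.0 CPM in WT induced and at 27.8, 11.8 and 30.2 CPM in WT uninduced replicates. The lowest value of each group was that of its deepest library. The log2 values were 0.22 ± 0.43 SE on S222A induction and -0.34 ± 0.44 SE on WT induction (95% interval -1.29 to 0.62; edgeR adjusted p = 1.00). The interval of the WT value spans a fall to 0.409-fold and a rise to 1.53-fold.

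Over the 10 members, 0 were called on WT induction by edgeR, 0 by DESeq2 and 0 by limma-voom, with 0 at an unadjusted edgeR p under 0.05, where 0.00872% of all tested genes were called. The member log2 values ranged from -0.34 to 0.48 with a median of -0.06, beside 0.01 over all tested genes. WT induced libraries lay above the uninduced ones without overlap for 2 members, TGFBR1 and TGFBR2, where 2.81% of all tested genes did so. On S222A induction 4.45% of all tested genes were called, 2.8% higher and 1.66% lower. Nothing is read from the members' calls there, since the set was chosen by the value of TGFBR2 in that contrast. S222A induced libraries lay above the uninduced ones without overlap for 4 members and below them for SKI, where 14.4% and 13% of all tested genes did so. The 4 include TGFBR2, which chose the set. The median log2 value was 0.20 over the members, TGFBR2 included, and 0.01 over all tested genes.

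Between the induced lines SKIL and TGFBR1, 2 of the 9 members other than TGFBR2, were called, both higher in S222A, where 6.34% of all tested genes were called and 3.73% were called higher. TGFBR2 stood 2.89-fold higher there (log2 1.53 ± 0.25 SE, 95% interval 0.98 to 2.08), given without a test because it rests on the S222A induced libraries which chose the set. The S222A induced libraries lay above the WT induced ones without overlap for 5 members, TGFBR1, TGFBR2, SMAD2, SMAD3 and SKIL, where 15.2% of all tested genes did so. Nothing is read from the part of TGFBR2 in that count. All 10 members, TGFBR2 included, had a positive log2 value, from 0.15 ± 0.25 SE for SMAD4 upward. Their median was 0.53, beside 0.00 over all tested genes. The share of all tested genes with a positive value is not given here, so nothing is read from the count of signs. Between the uninduced lines 0 members were called by edgeR, DESeq2 or limma-voom, where 0.392% of all tested genes were called by edgeR and 0.34% were called higher. The groups did not overlap for TGFBR1 and TGFBR3, both higher in S222A, where 6.24% of all tested genes did so. At an unadjusted edgeR p under 0.05 stood 2 of the members, TGFBR1 and TGFBR3. The share of all tested genes at that unadjusted p is not given here, so nothing is read from the count. For the difference of the inductions 0 members were called by any of these tools, where 0.0784% of all tested genes were called by edgeR. Leaving TGFBR2 aside, SMAD3 alone stood at an unadjusted edgeR p under 0.05, likewise without a share of all tested genes beside it. The comparisons share libraries: the S222A induced ones enter the S222A induction and the induced lines, and the S222A uninduced ones enter the S222A induction and the uninduced lines.

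**Figure D3:**
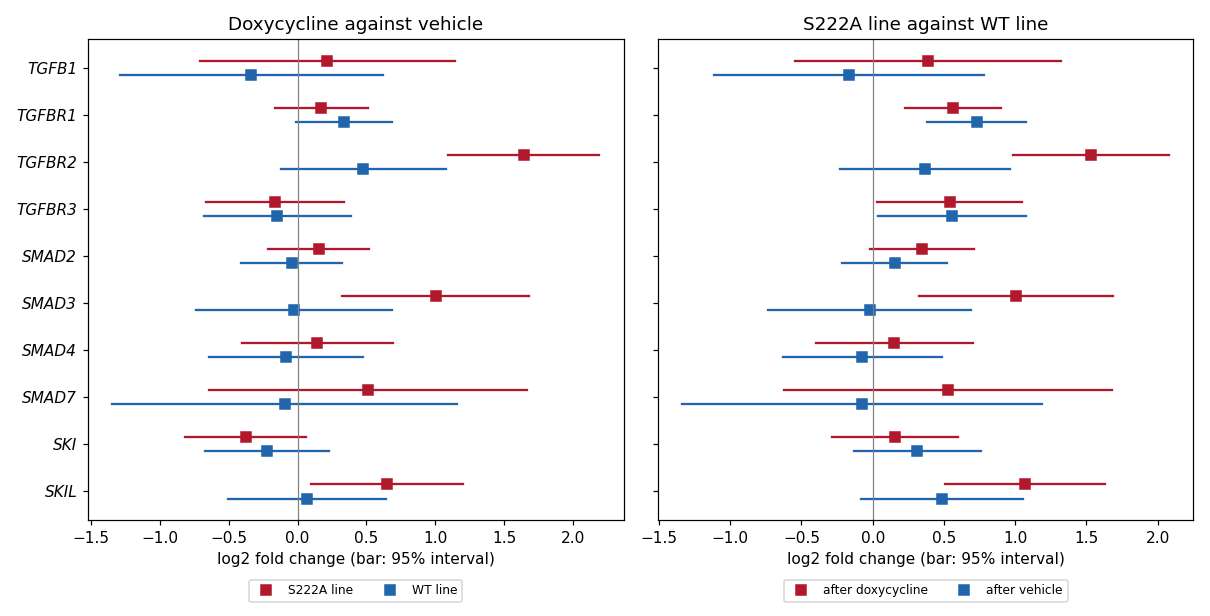
Log2 fold change (x axis) of each gene with its 95% interval, on the left for induced over uninduced cells of the S222A line (red) and the WT line (blue), and on the right for S222A over WT cells after doxycycline (red) and after vehicle (blue). TGFBR2 stands at 1.64 in the S222A line and 0.48 in the WT line, and TGFBR1 at 0.57 and 0.73 between the lines after doxycycline and after vehicle.

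The wider pathway was taken as 76 further genes for latency, other receptors of the family, receptor partners, other SMADs, SMAD turnover, nuclear partners, the non-SMAD arm and known targets. Of these, 53 passed the low count filter. Several genes used as readouts of the pathway in other cells were near the floor: PMEPA1 had at most 1 count in a library, ID1 at most 1.74 CPM, and CTGF and SNAI2 no count. SMAD1, one of the SMADs of the BMP branch, had at most 1 count, and SMAD9 at most 19. SMAD5, also of that branch, averaged from 49.7 CPM in WT uninduced to 61.5 CPM in WT induced cells.

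On S222A induction 1 of the 53 tested genes was called higher and 1 lower, a share of 3.77% beside 4.45% of all tested genes. TSC22D1, a leucine zipper gene first described in mouse cells as induced by TGF-beta, stood at 39.8, 52.4 and 29.0 CPM in S222A induced replicates, against 13.6, 15.6 and 15.3 CPM in S222A uninduced replicates. It rose 2.74-fold (log2 1.45 ± 0.29 SE), with an adjusted p = 0.0137 by edgeR. The call was lost without S222A uninduced replicate 1 (0.0717) or 2 (0.0532) and without S222A induced replicate 2 (0.0675). UCHL5, a proteasome-bound deubiquitinase that can act on the type I receptor, stood at 257, 295 and 270 CPM in S222A induced, against 405, 400.2 and 493 CPM in S222A uninduced replicates. It fell 1.58-fold (log2 -0.66 ± 0.16 SE, adjusted p = 0.0339), a call that was lost without each of 8 libraries in turn, the 6 S222A libraries, WT uninduced replicate 1 and WT induced replicate 3 (0.0528 to 0.143), and with no low count filter (0.11). In the WT line neither was called, with log2 values of 0.42 ± 0.29 SE for TSC22D1 and 0.01 ± 0.16 SE for UCHL5. The differences of the inductions, 1.04 ± 0.41 SE for TSC22D1 (adjusted p = 0.688) and -0.66 ± 0.22 SE for UCHL5 (adjusted p = 0.572), were not called.

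Between the induced lines 2 of the 53 genes were called higher in S222A and 1 lower, a share of 5.66% beside 6.34% of all tested genes. CDKN1A, the cell-cycle inhibitor p21 and a target of SMADs and of p53, averaged 94.8 ± 4.6 CPM in S222A induced and 40.5 ± 8.28 CPM in WT induced cells (SD, n = 3 each; 2.29-fold, edgeR adjusted p = 0.00478). It was also called between the uninduced lines, at 91.2 ± 9.68 CPM in S222A and 31.5 ± 8.51 CPM in WT cells (2.85-fold, adjusted p = 0.005). It was the only wider pathway gene called there, a share of 1.89% beside 0.392% of all tested genes, and nothing about the pathway is read from 1 gene. CDKN1A lost that call without WT uninduced replicate 1 (0.0511) and with only the uninduced groups in the fit (0.0594). On S222A induction its log2 value was 0.06 ± 0.20 SE (adjusted p = 0.925). ID2, a helix-loop-helix inhibitor that TGF-beta family signals control, had 21, 35 and 68 counts in S222A induced and 9, 4 and 5 counts in WT induced replicates. In CPM, ID2 stood at 7.27, 7.80 and 5.42 in S222A induced and at 1.32, 4.48 and 1.32 in WT induced replicates, the 4.48 from 4 counts. Its log2 value was 1.93 ± 0.52 SE (adjusted p = 0.0453), and the call was lost without each of 9 libraries in turn, all but WT uninduced replicate 2, WT induced replicate 2 and S222A uninduced replicate 3 (0.0538 to 0.201). It was also lost with only the induced groups in the fit (0.0619) and without the deepest libraries (0.0976). UCHL5 was lower in S222A induced cells (log2 -0.67 ± 0.16 SE, adjusted p = 0.0255), and that call was lost without WT induced replicate 2 or 3 and without each S222A induced replicate (0.0618 to 0.115), with no low count filter (0.0637) and with only the induced groups in the fit (0.0501). On WT induction and for the difference of the inductions 0 of the 53 genes were called by edgeR, DESeq2 or limma-voom. Of all tested genes edgeR called 0.00872% on WT induction and 0.0784% for the difference, so nothing is read from the 0. At an unadjusted edgeR p under 0.05 stood 0 and 3 of the 53 genes. Nothing is read from these unadjusted counts, as the share of all tested genes at that p is not given here.

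**Figure D4:**
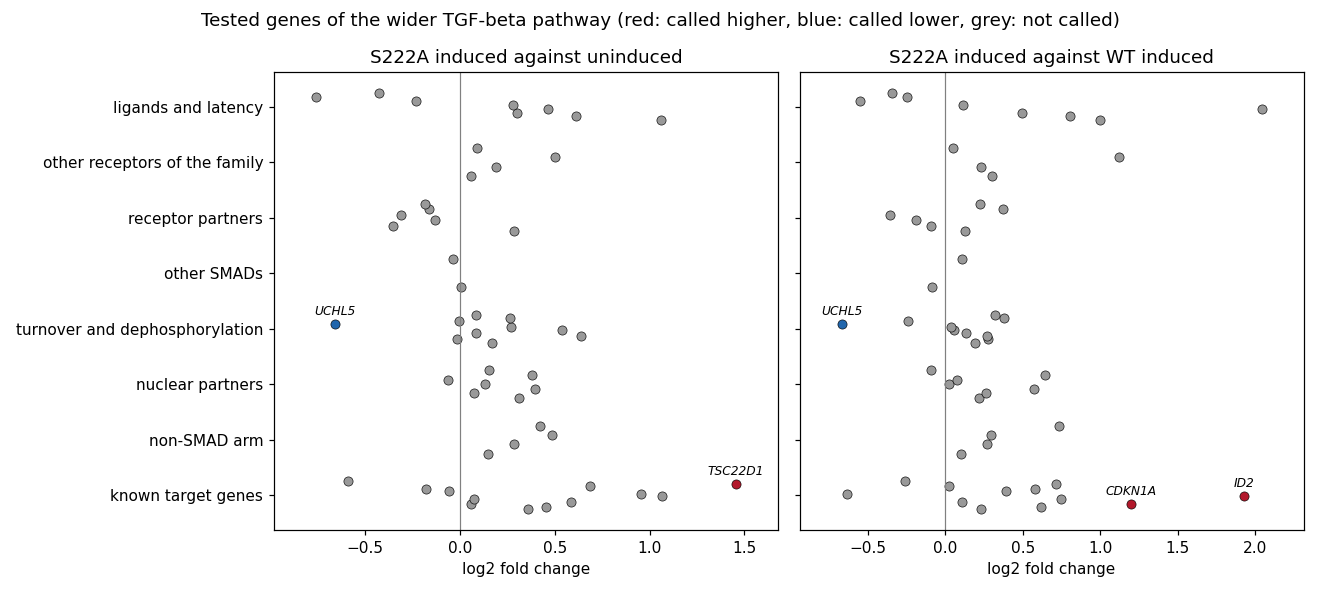
Log2 fold change (x axis) of the 53 tested wider pathway genes by role (y axis), for S222A induced over S222A uninduced cells on the left and S222A induced over WT induced cells on the right, with called genes coloured and named. TSC22D1 (1.45) and UCHL5 (-0.66) are called on the left, and ID2 (1.93), CDKN1A (1.20) and UCHL5 (-0.67) on the right.

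The genes most like TGFBR2 across the 12 libraries, by Pearson's correlation of log2 CPM over all tested genes, were FBXL17 (0.964), FNBP1 (0.963), SRPK3 (0.96), CD109 (0.954) and PJA2 (0.953). The libraries share 4 groups and their depth, so these values are a description. SRPK3 was near the floor outside S222A induced cells, with 0 to 6 counts per library there against 22 to 68 in S222A induced libraries. CD109, a surface glycoprotein that can bind TGF-beta, stood at 40.2, 41.3 and 41.8 CPM in S222A induced, against 13.7, 13.95 and 8.76 CPM in S222A uninduced replicates. It averaged 13.4 ± 1.26 CPM in WT induced and 7.82 ± 2.61 CPM in WT uninduced cells (SD, n = 3 each). FNBP1, a membrane-bending protein of the F-BAR family, averaged 375 ± 25.6 CPM in S222A induced, 212 ± 2.66 CPM in S222A uninduced, 219 ± 20.2 CPM in WT induced and 190.4 ± 12.4 CPM in WT uninduced cells. Among the members the nearest to TGFBR2 were SMAD3 (0.744, above 94.9% of all tested genes), SKIL (0.691) and TGFBR1 (0.666), and the lowest was SKI (-0.237).

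Within groups, 3 members, TGFB1, SKIL and TGFBR1, were lower in the deepest library of all 4 groups, and 3, SMAD3, SMAD4 and TGFBR3, were higher, where 25.7% of all tested genes were lower and 28.4% higher. The mean log2 difference, deepest minus the other libraries of the group, was -1.01 for TGFB1, and 3.46% of all tested genes were at or below that. It was -0.56 for SKIL, with 11.6% of all tested genes at or below it, and -0.11 for TGFBR1. It was 0.57 for SMAD3, with 12.1% at or above it, 0.33 for SMAD4 and 0.25 for TGFBR3. TGFBR2 was higher in 3 of the 4 groups, with a mean of 0.15. The deepest libraries also had 5.03 to 7% of counts from mitochondrial genes, against 6.86 to 9.27% in the other 8. Each group has 1 such library, and what sets it apart was not tested.

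**Figure D5:**
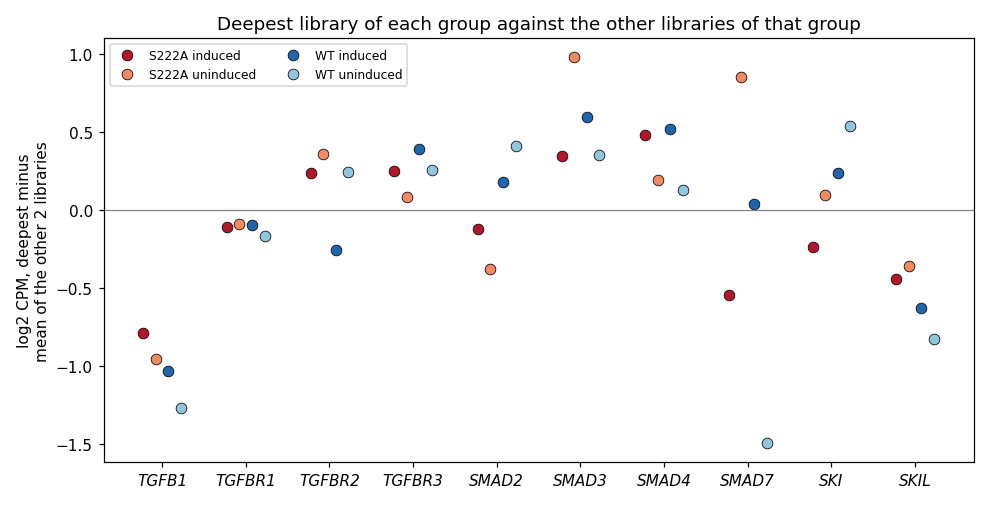
Log2 CPM of the deepest library of a group minus the mean of the other libraries of that group (y axis) for each gene, with a point per group. TGFB1 and SKIL are below 0 and SMAD3 above 0 in all 4 groups, with means of -1.01, -0.56 and 0.57.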

How the data were processed

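The data deposited by the authors were raw counts for each gene symbol in 12 libraries, with no normalization. Columns were matched to samples by their names, and the last header names, joined by a space, by name and position. Per the submitters' processing notes the build was hg19 and the tools STAR 2.4, HTSeq 0.6.1 and DESeq2, with no roles given, and per the labels' protocols a TruSeq RNA kit was used. The sources used here give neither annotation nor strand setting, so reads of overlapping antisense genes may be counted in. Genes were kept with filterByExpr (minimum count 10) and fitted together with TMM factors and a mean per group in edgeR 4.0.16 (robust quasi-likelihood F tests, R 4.3.3), with Benjamini-Hochberg adjustment over 11474 genes and a threshold of 0.05. The fit was tested on simulated data. SE is the absolute log2 fold change over the square root of F, CPM uses TMM factors, and log2 CPM a prior count of 2. All 10 members were named, as were called genes of the wider list and the 5 genes most correlated with TGFBR2. Members and lists were chosen with earlier results of these data known. Alternatives included DESeq2 1.42.0 and limma-voom 3.58.1. Intervals cover the fit's error, and floors counting error only. Libraries of a group differed by more than sampling noise (chi-square per degree of freedom 2.64 to 35.2), so none was treated as a duplicate.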

Additional observations from a re-analysis of the deposited data

How the results depend on the processing

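The log2 value of TGFBR2 on S222A induction ran from 1.52 to 1.80 when single libraries were left out and from 1.58 to 1.68 otherwise. These runs reuse the libraries whose TGFBR2 value chose the set, so the ranges are a description and no support for the rise. Counts of members past the threshold include TGFBR2, which chose the set, so nothing is read from its share in them. On S222A induction, where nothing is read from the members' calls, 1 became 2 without the low count filter and 3 with a term for the deepest libraries. Between the induced lines 3 became 1 with the replicate block, which ended the calls of SKIL (0.0683) and TGFBR1 (0.108), and 1 to 4 without single libraries. The count stayed 3 without the filter and without the deepest libraries, with SMAD3 in place of TGFBR1. The 0 called between the uninduced lines became 1 with the term for the deepest libraries. Of the wider pathway genes, the 2 called on S222A induction became 1 with the block, which ended the call of UCHL5 (0.0826), 5 with the depth term and 0 to 2 without single libraries, and stayed 2 without the filter with FURIN in place of UCHL5. The 3 between the induced lines became 5 with limma-voom, 1 with the block, which ended the calls of ID2 (0.114) and UCHL5 (0.0626), 13 with the depth term and 1 to 4 without single libraries. The 1 between the uninduced lines became 0 with only those groups in the fit and 0 to 1 without single libraries. Over all genes the block moved the calls to 235 on S222A induction, where the fit without it gave 511, to 350 of 727 between the induced lines and to 0 of 9 for the difference of the inductions. With the depth term the calls over all 11474 tested genes rose to 2052 on S222A induction and to 2480 between the induced lines. They rose to 218 between the uninduced lines, where the fit without that term gave 45, and to 147 for the difference of the inductions. The rise in calls with the depth term was thus general, and nothing about the pathway is read from it. Same-numbered libraries deviated together with r over 0.1 in 6 of 18 pairs (-0.531 to 0.638). The deepest libraries, which do not all share a number, deviated together at r of 0.615 to 0.757. Deviations shared by the deepest libraries thus enter the values of the same-numbered pairs, and what these deviations come from was not tested. The values of the pairs therefore cannot decide whether the numbers pair the libraries. Signs turned for small values: on WT induction, SMAD2 to 0.067 without the deepest libraries and SMAD7 to 0.20 with limma-voom and 0.045 with the depth term. The TGFBR3 difference of the inductions turned to 0.0023 with upper quartile factors, 0.0049 without the filter and 0.029 with the block. Between the uninduced lines SMAD3 turned to 0.062 with limma-voom and 6.98e-05 with the depth term, and SMAD7 to 0.42 and 0.21. Without single libraries, the WT induction values ran from -0.70 to 0.0034 for TGFB1, -0.13 to 0.12 for SMAD2, -0.32 to 0.13 for SMAD3, -0.32 to 0.074 for SMAD4, -0.62 to 0.37 for SMAD7, -0.36 to 0.0061 for SKI and -0.18 to 0.27 for SKIL. The TGFBR3 difference ran from -0.13 to 0.18, and SMAD4 between the induced lines from -0.042 to 0.38. Between the uninduced lines TGFB1 ran from -0.54 to 0.16, SMAD3 from -0.43 to 0.20, SMAD4 from -0.30 to 0.11 and SMAD7 from -0.67 to 0.38. The cause of these changes was not tested. Without the low count filter the median of all genes moved to 0.12 on S222A induction. SMAD7 had the lowest counts of the members, at 1 to 43 per library.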
